A study of Arabidopsis thaliana with 6 samples.

Results

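CC-type glutaredoxins are a land plant class of small redox proteins, named after the neighbouring cysteines at their active site. The genes described here are 10 Arabidopsis thaliana members of that class, given as loci, several of which are known from other work to respond to nitrate. A probe set of the Affymetrix ATH1 array was named for 9 of them, among 13356 genes with a probe set of their own, and AT4G15670 had none. No member shared its named probe set with another gene. They were picked with the difference between the VFB mutant and wild type in these arrays in view, so that difference is given for members as a description and not as a test. The annotation used here gives the 9 genes no name beyond the locus, and their class comes from the choice of members.

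Glutaredoxins use glutathione to reduce disulfides or to remove glutathione from proteins. Members of the CC-type class can bind TGA factors, which are bZIP transcription factors, and several carry an end that recruits the TOPLESS co-repressors. In Arabidopsis some are induced by nitrate or cytokinin in roots and shoots, and others are made in the shoot under nitrogen demand and act on nitrate uptake in roots.

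The wild type group held 3 arrays of light-grown Col-0 seedlings and the mutant group 3 arrays of light-grown seedlings of a VFB triple mutant. VFB genes encode F-box proteins, relatives of the auxin receptors TIR1 and AFB, and the labels name neither the mutated genes nor the alleles. The annotation names no probe set for any of the 4 VFB genes in RefSeq, so the mutation was not checked on the arrays. All 6 descriptions give an age of 10 days, but the source names of the mutant arrays give 5 days, so age and genotype cannot be told apart. The extract protocol of mutant replicate 3 names No-0 wild type, and that array was kept with the mutant by its title.

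Values are MAS5 probe set signals on a linear scale, which carry no unit and are not comparable between genes. Group values are means ± SD over 3 arrays. Differences are mutant minus wild type on the log2(signal + 16) scale, with standard errors, and folds on this scale understate the change of dim genes. Probe sets with a mean above the 40th percentile, a signal of about 108.6, were tested. A probe set was called when limma's adjusted p, over all 13647 tested probe sets, was under 0.05. The number of arrays limits the precision.

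The 9 members did not move as a block. AT2G47880 and AT2G30540 were lower in every mutant array, 3 of the neighbouring genes AT4G15660 to AT4G15700 and AT1G03020 were higher in every mutant array, and AT4G15660, AT5G18600 and AT3G62950 had overlapping groups. Of 7 tested members, 3 were called higher and 2 lower, where 18.6% of all tested probe sets were called. The share called higher among all tested probe sets was 8.17%, and the share called lower 10.4%. Higher calls were 43.9% of all calls as deposited and 61.8% with median centring, while the 5 called members were called under both. Because the members were chosen on this contrast, nothing is read from the difference between these shares. The median difference over the 9 members was 0.58, against -0.03 over all 22746 gene probe sets. Over the 7 tested members it was 0.21, against -0.045 over all tested probe sets. For the same reason nothing is read from these medians.

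**Figure D1:**
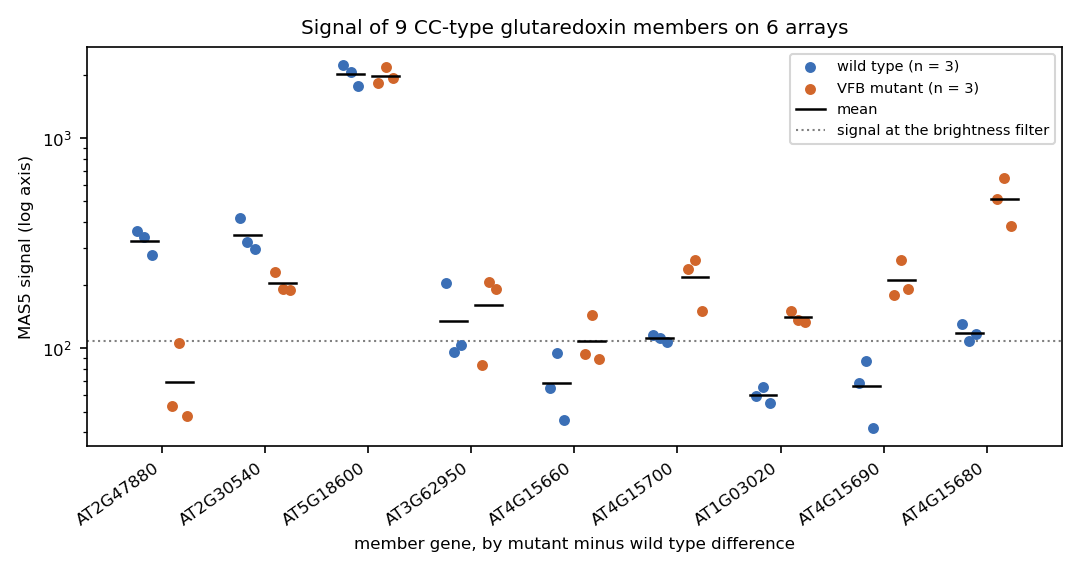
MAS5 signal (log axis) of the 9 members in each of the 3 wild type and 3 mutant arrays, with group means as bars and the signal at the brightness filter as a dotted line. AT2G47880 lies at 276.8 to 362.7 in wild type and at 47.7 to 105.9 in the mutant, while AT4G15680 lies at 108.7 to 130 and at 380.9 to 648.

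AT2G47880 had the largest difference of the 9 as deposited. AT4G15680 was larger with an offset of 64 (1.64 against -1.57), after quantile normalization (2.02 against -1.99) or median centring (2.04 against -1.97), and without wild type replicate 1 (2.01 against -1.98) or mutant replicate 3 (2.14 against -1.89). The signal of AT2G47880 was 362.7, 337.3 and 276.8 in wild type replicates 1 to 3, and 53.1, 105.9 and 47.7 in mutant replicates 1 to 3. The lowest wild type array was thus above the highest mutant array, and mutant replicate 2 stood above the other mutant arrays. The group values were 325.6 ± 44.1 in wild type and 68.9 ± 32.2 in the mutant. The difference was -2.06 ± 0.241, a signal 4.18-fold lower, and it ranked 7 by size among the 1426 probe sets called lower. The mutant mean lies under the signal at the filter, so this gene was tested because of its wild type level. Another gene model, AT2G47885, lies within AT2G47880 in the RefSeq annotation, and whether the probes report both was not tested.

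AT2G30540 had signals of 417.5, 320.9 and 296.5 in the wild type arrays and 230.2, 191.8 and 190.3 in the mutant arrays. All mutant values were below all wild type values, with the highest value of both groups in replicate 1. The means were 345.0 ± 63.99 and 204.1 ± 22.6, a difference of -0.70 ± 0.164, or 1.63-fold lower. The spread between mutant arrays was 11.1% of the mean here, close to the median of 11.3% over tested probe sets, and 46.7% for AT2G47880. Over all gene probe sets, 16.1% had every mutant array below every wild type array, and 2 of the 9 members did.

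The other side of the family is a run of neighbours. AT4G15660, AT4G15670, AT4G15680, AT4G15690 and AT4G15700 follow each other in the RefSeq gene order with no other protein-coding gene between them. The 4 of them with a probe set all had a higher mean in the mutant. Each probe set is named for 1 gene, but whether probes also bind the transcripts of a neighbouring copy was not tested, so the 4 may not count as separate observations.

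AT4G15680 had the largest difference in the run. Wild type arrays gave 130, 108.7 and 117.3, and mutant arrays 514.4, 648 and 380.9. The lowest mutant array lay far above the highest wild type array. Means were 118.7 ± 10.7 and 514.4 ± 134, a difference of 1.95 ± 0.187, or 3.86-fold higher.

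For AT4G15690 the signals were 68.6, 87.5 and 41.9 in wild type and 178.9, 263 and 192.4 in the mutant. No mutant array reached down to the wild type range, and mutant replicate 2 was again the highest. The difference was 1.49 ± 0.242, from 66.0 ± 22.9 to 211.4 ± 45.2, or 2.82-fold higher. Its wild type mean lay under the signal at the filter, and the gene was tested because of its mutant level. Without any 1 of the 3 mutant arrays it fell below the filter and was not tested.

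AT4G15700 gave 116.1, 111.7 and 107.6 in wild type and 239.8, 263.5 and 151.3 in the mutant. The wild type arrays lay close together, with an SD of 3.802% of the mean, whereas mutant replicate 3 was well below the other mutant arrays. The difference was 0.84 ± 0.206, from 111.8 ± 4.25 to 218.2 ± 59.1, or 1.79-fold higher. Without mutant replicate 2 the difference was 0.70 and no longer passed the threshold, and 3 members in all were then called in place of 5.

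AT4G15660, at the start of the run, was below the filter and was not tested. It had signals of 64.6, 94.9 and 45.6 in wild type and 94.1, 143.6 and 88.6 in the mutant. The groups overlapped, since wild type replicate 2 exceeded mutant replicates 1 and 3. The means were 68.4 ± 24.9 and 108.8 ± 30.3, a difference of 0.58.

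**Figure D2:**
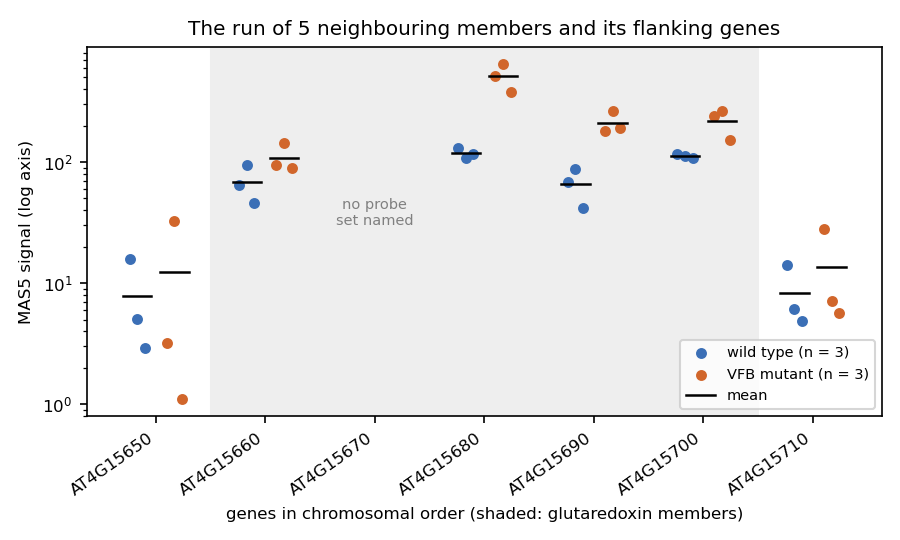
MAS5 signal (log axis) of the run AT4G15660 to AT4G15700 and of the gene on each side of it, in chromosomal order, for 3 wild type and 3 mutant arrays with group means as bars. Mutant means exceed wild type means at all 4 measured members, and the flanking genes AT4G15650 and AT4G15710 stay at 32.6 or lower on every array.

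The genes next to the run were dim. AT4G15650 was at 7.90 ± 6.84 in wild type and 12.3 ± 17.6 in the mutant, and AT4G15710 at 8.33 ± 4.94 and 13.6 ± 12.5, with overlapping groups in both. The nearest genes outside the family on either side of each member came to 12, of which 9 had a named probe set and 4 were tested. None of these 4 was called by limma. They were AT5G18590 (-0.25 ± 0.112), AT3G62970 (-0.41 ± 0.152), AT1G03030 (0.04 ± 0.128) and AT2G30530 (-0.19 ± 0.121), with limma adjusted p-values of 0.156, 0.0786, 0.853 and 0.304, and 2 of them had an unadjusted p under 0.05. Without wild type replicate 3 AT3G62970 was at -0.56 and passed (limma, adjusted p = 0.0278). AT5G18590, AT3G62970 and AT2G30530 had every mutant array below every wild type array, as 16.1% of all gene probe sets did.

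AT1G03020 lies apart from the run and was also higher in every mutant array. Its wild type signals were 59.4, 65.4 and 54.8, and its mutant signals 151.1, 137.1 and 133.8. The mutant arrays lay close together, with an SD of 6.53% of the mean. The means were 59.9 ± 5.32 and 140.7 ± 9.18, a difference of 1.05, or 2.07-fold higher. The gene lay below the filter and was not tested, and its difference ranged from 0.72 with an offset of 64 to 1.22 with an offset of 1. Every mutant array was above every wild type array for 4 of the 9 members, and for 11.8% of all gene probe sets.

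AT5G18600 and AT3G62950 were tested and not called. AT5G18600 had 2224.9, 2055.7 and 1771.9 in wild type and 1821.7, 2188.5 and 1942.8 in the mutant. Its difference was -0.02 ± 0.117, with a sign that turned under median centring (0.07). AT3G62950 had 205, 96.2 and 103.6 in wild type and 83.1, 207.9 and 191.7 in the mutant, so all wild type values lay within the range of the mutant values. Its difference was 0.21 ± 0.322, and without mutant replicate 2 it was -0.002. The SD of AT3G62950 was 45.1% of the wild type mean and 42.2% of the mutant mean, against medians of 10.5% and 11.3% over tested probe sets. The source of this wide spread between arrays was not tested.

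Single arrays ran alike over the members. Mutant replicate 2 was the highest mutant array for 7 of the 9 members, with AT1G03020 and AT2G30540 as exceptions, and for 30.9% of all tested probe sets. This held for AT2G47880, lower in the mutant, and for all 4 measured genes of the run. Wild type replicate 3 was the lowest wild type array for 7 of the 9, except AT4G15680 and AT3G62950, and for 29.7% of tested probe sets. These counts come from genes on the same arrays, which are not independent. The 4 genes of the run may also share probe signal and may not count as separate observations.

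The class holds 11 further genes from a fixed list, 8 with a named probe set and 2 of them bright enough to test. AT1G06830 was the called one of these 2. Its signals were 433.1, 375.2 and 559 in wild type and 135.4, 146 and 193.5 in the mutant, with no overlap. It fell by 1.43 ± 0.181 on the log2 scale, 2.70-fold, from 455.8 ± 94.0 to 158.3 ± 30.9 (limma, adjusted p = 0.000195). AT3G62930 changed by 0.18 ± 0.198 and did not pass (limma, adjusted p = 0.581).

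The 6 genes below the filter included AT3G62960, which directly neighbours the member AT3G62950. It had signals of 88.3, 44.8 and 72.3 in wild type and 3.8, 48.9 and 8.7 in the mutant. Mutant replicate 2 lay in the wild type range, far from the other mutant arrays, and the difference of -1.38 moved to -0.67 with an offset of 64 and -2.34 with an offset of 1. GRX480, which is induced by salicylic acid and acts on jasmonate-responsive genes, was at 72.0 ± 15.6 and 87.0 ± 19.9. ROXY1, which acts in petal development and with ROXY2 in anthers, was at 61.0 ± 18.9 and 41.6 ± 17.5, and ROXY2 at 57.2 ± 52.8 and 56.3 ± 38.5. AT4G33040 (0.66) and AT5G11930 (0.20) also had overlapping groups. In all, 17 of 21 CC-type genes had a named probe set and 9 were tested, with 3 called higher and 3 lower. The shares over all tested probe sets were 8.17% higher and 10.4% lower, and the members in this count were chosen on the contrast.

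**Figure D3:**
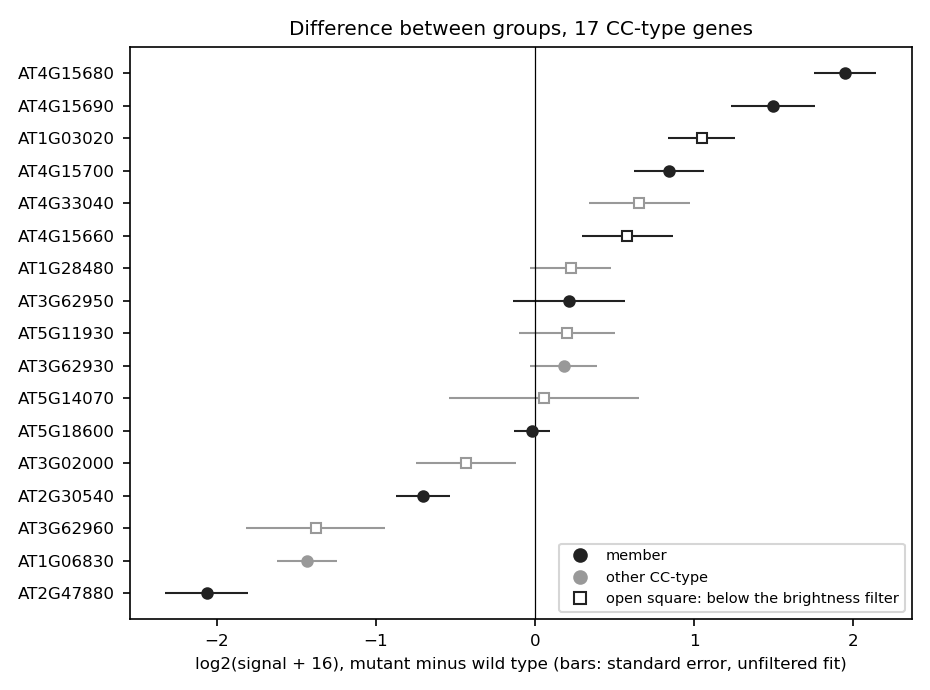
Difference between groups, mutant minus wild type on the log2(signal + 16) scale, for 17 CC-type genes, with standard errors from a fit to all probe sets without the filter. Filled circles passed the brightness filter and open squares did not, with members in black and other CC-type genes in grey. AT2G47880 (-2.06) and AT1G06830 (-1.43) lie at the low end, and AT4G15680 (1.95) and AT4G15690 (1.49) at the high end.

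The other glutaredoxin classes have different active sites and include the general cellular glutaredoxins. Of 10 listed CPYC- and CGFS-type genes, 5 had a named probe set, none of them of the CGFS type, which was thus not measured here. All 5 were tested and 0 were called by limma, with 0 at an unadjusted p under 0.05. Over all tested probe sets, 18.6% were called. GRXC1, a CPYC-type glutaredoxin, changed by 0.19 ± 0.131 (limma, adjusted p = 0.364) and AT5G20500 by -0.16 ± 0.0993 (limma, adjusted p = 0.29). GRXC2, of the same type, was at 5446 ± 473 and 5969 ± 207. Whether CC-type genes differ from these classes was not tested.

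Glutathione reductases keep the pool of reduced glutathione that glutaredoxins draw on. Of 4 listed genes for glutathione supply, 2 were tested and 1 was called, where 18.6% of all tested probe sets were called. GR, the glutathione reductase of plastids and mitochondria, rose by 0.65 ± 0.128, from 1919 ± 264 to 3015 ± 385, with every mutant array above every wild type array (limma, adjusted p = 0.00391). GR1, the cytosolic form, changed by 0.28 ± 0.116 and did not pass (limma, adjusted p = 0.118), but passed after median centring (limma, adjusted p = 0.0454).

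Few nitrate and cytokinin genes were named in the annotation used here, which gave no gene for 8730 of the 22746 gene probe sets. A listed gene without a named probe set may therefore still be on the array. Of 23 listed nitrate response genes 1 had a named probe set, AT1G68670. It had signals of 654, 695.8 and 684.2 in wild type and 847.3, 1249.6 and 1229.3 in the mutant, and rose by 0.68 ± 0.146 (limma, adjusted p = 0.00675). One gene does not describe the nitrate response. Of 9 type-A response regulators, which are induced by cytokinin, 2 had a named probe set and neither was bright enough to test. ARR15 was at 63.1 ± 10.6 in wild type and 26.8 ± 2.58 in the mutant, without overlap, and ARR16 at 70.5 ± 11.2 and 73.3 ± 17.7. AT4G32950, the 1 gene of 3 with a named probe set in the list for CEP peptide signalling, was at 72.4 ± 28.0 and 63.3 ± 26.3. That list held no CC-type gene, and a single dim gene does not describe CEP signalling. The lists of TGA and TOPLESS genes (14) and of h-type thioredoxins (7) had no gene with a named probe set.

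AT2G47880 was taken as the reference for its difference as deposited. The genes whose pattern over the 6 arrays was most like it were found by the root mean square difference of gene-centred log2 values, over 7324 tested single-gene probe sets. AT3G23550 was the closest, at 0.17, followed by AT3G04210 (0.28), AT3G59350 (0.37), AT2G34510 (0.37) and AT1G33700 (0.39), where the median candidate was at 1.07. AT3G23550 had signals of 879.4, 597.7 and 511.7 in wild type and 110.9, 220.2 and 128.9 in the mutant. Its highest mutant value was in replicate 2, as for AT2G47880 and the other close genes except AT3G59350. Among the members, AT2G30540 was nearest to AT2G47880, at 0.76, and AT4G15680 farthest, at 2.01. A gene flat over the arrays would be at 1.08, the spread of AT2G47880 itself, close to the median candidate. The measure includes the difference between groups, on which the members were chosen. The order of the members thus largely restates that difference. This is a description of likeness over these arrays only.

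**Figure D4:**
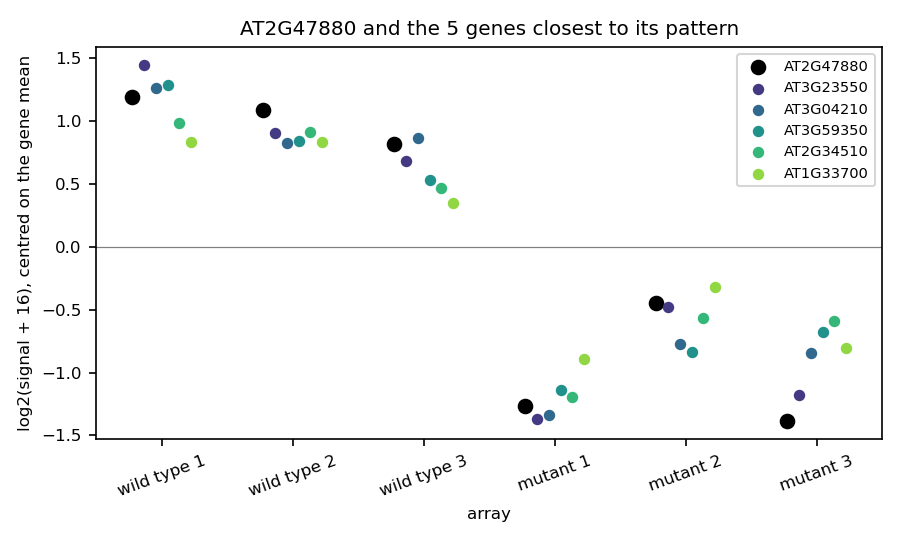
Gene-centred log2(signal + 16) of AT2G47880 (large black points) and of the 5 genes closest to its pattern, for each of the 6 arrays. All 6 genes lie above 0 in the wild type arrays and below 0 in the mutant arrays. All but AT3G59350 have their highest mutant value in replicate 2.

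Some tissue markers also differed between the groups. Over all tested probe sets, 10.4% were called lower and 8.17% higher. Of 7 listed root genes 5 had a named probe set and 4 were tested, of which 3 fell and 0 rose. These were AT4G26010 (-1.07 ± 0.253), AT1G30870 (-1.03 ± 0.226) and AT5G17820 (-0.73 ± 0.188), with limma adjusted p-values of 0.0112, 0.00733 and 0.0172. AT4G26010 and AT1G30870 had mutant means of 84.7 and 91.2, under the signal at the filter. They were tested because of their wild type level, so the count of falls is not free of the filter. AT5G17820 no longer passed without wild type replicate 2 (limma, adjusted p = 0.0575), mutant replicate 1 (0.0523) or mutant replicate 2 (0.0535). The root gene PYK10 changed by 0.20 ± 0.118 and did not pass (limma, adjusted p = 0.274), and EXPA7, a root hair expansin, was at 58.4 ± 19.0 and 29.8 ± 22.8 below the filter. Of 10 leaf photosynthesis genes 3 were tested and 1 rose, the Calvin cycle gene PRK, by 0.43 ± 0.109 (limma, adjusted p = 0.0166), while LHCB4.1 (0.19 ± 0.107) and RCA (0.28 ± 0.104) did not pass. PRK did not pass under quantile normalization (0.0773), without the filter (0.0555), or without wild type replicate 1 (0.0685) or mutant replicate 2 (0.0661), as limma adjusted p-values. The tissue is whole seedlings, so fewer cells of a type and less RNA per cell cannot be told apart, and the part of the root and leaf share in the glutaredoxin differences was not tested. The seed reserve (8) and flower (4) lists had no named probe set.

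RNA quality was compared through control probe sets. The 3' to 5' signal ratio of the actin control ran from 2.55 to 3.00 in wild type and from 3.19 to 3.56 in the mutant. The GAPDH ratio ran from 1.08 to 1.19 and from 1.04 to 1.204, and the ubiquitin ratio from 1.33 to 1.53 and from 1.46 to 1.89. In an older group of control probe sets, actin ran from 11.5 to 23.7 in wild type and from 23.9 to 29.6 in the mutant. There GAPDH ran from 2.10 to 2.44 and from 2.14 to 2.66, and ubiquitin from 2.77 to 3.22 and from 3.19 to 4.27. The part of RNA quality in the member differences was not tested. Correlations of log2 values over tested probe sets were 0.9779 to 0.9852 within wild type, 0.9779 to 0.9803 within the mutant and 0.9405 to 0.9563 between groups.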

How the data were processed

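Seedling RNA was hybridised to 6 ATH1 arrays. The deposited values are probe set intensities made with MAS5, per the submitters' processing notes (version and settings: not given in the sources used here). After removal of 2% of values at each end, the mean of every array was 500. Samples were grouped by title. The 64 control probe sets were left out of the tests. Probe sets were named through the platform annotation and RefSeq (TAIR10.1). Of the probe sets, 13513 had 1 gene (13436 of them in RefSeq), 503 several and 8730 none. The contrast was fitted by limma 3.58.1 (lmFit, eBayes with trend; R 4.3.3) with Benjamini-Hochberg adjustment, and the fit was tested on simulated data. Nothing in the labels ties replicates to separate plantings, so the spread behind the p-values may be technical.

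The members and lists were chosen with earlier results of these data known. Named genes are every member with a probe set, up to 4 called or otherwise 2 tested genes per list, and the 5 genes most like the member with the largest difference as deposited. Further listed and neighbouring genes were named after their values were seen. Alternatives were offsets of 1 and 64, median centring or quantile normalization, a 60th percentile filter or none, eBayes without trend, robust eBayes, a replicate block and leaving out each array. Sequences were not analysed here. Figures were drawn with matplotlib 3.10.9.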

Additional observations from a re-analysis of the deposited data

How the results depend on the processing

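As deposited, 2541 probe sets were called, 1115 higher and 1426 lower. Other settings gave 1902 to 2562, and leaving out 1 array gave 1696 to 2266. Calls lower numbered 871 to 1298 when 1 array was left out, with 871 without wild type replicate 2. Higher calls made up 43.9% as deposited and 61.8% after median centring. The 5 called members stayed called with every offset, normalization and variance model and without any 1 wild type array. With the 60th percentile filter 1 member was tested, so 0 were called, and with 1 mutant array left out 3 to 4 were. AT4G15690 then fell below the filter, and AT4G15700 (0.70) lost its call without mutant replicate 2. Without the filter 6 were called, including AT1G03020. AT2G47880 (-2.36 to -1.57), AT2G30540 (-0.80 to -0.56) and AT4G15680 (1.64 to 2.14) kept direction and call in all 14 alternatives that tested them. Signs turned for AT5G18600 under median centring (0.0689). Leaving out 1 array also turned signs among tested genes, for AT5G18600 (-0.111 to 0.0516), AT3G62950 (-0.00205 to 0.586, below 0 without mutant replicate 2) and AT2G20270 (-0.172 to 0.00784). Among genes below the filter it did so for ROXY2 (-0.505 to 0.644), AT4G32950 (-0.414 to 0.0745), ARR16 (-0.120 to 0.133) and AT5G11930 (-0.0203 to 0.366). The cause was not tested.

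Deviations from the group means correlated at -0.196, 0.0157 and -0.167 between same-numbered arrays, for replicates 1 to 3. Wild type replicate 1 and mutant replicate 3 were at 0.183, and wild type replicate 3 and mutant replicate 1 at 0.194. The remaining pairs ran from -0.0377 to 0.0225. With 3 arrays per group, these values cannot show whether the samples were paired. With a replicate block 1988 probe sets were called, 882 higher and 1106 lower, 5 of them members. The older control sets gave mutant minus wild type 3' to 5' ratios of 6.85 for actin, 0.154 for GAPDH and 0.767 for ubiquitin, against 0.602, -0.00154 and 0.192.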
